A study of Mus musculus with 25 samples.

Results

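Postnatal handling was compared with undisturbed rearing in the CA1 region of the hippocampus of those mice whose RNA had been extracted with Qiagen RNA/DNA columns. These were 17 of the 25 arrays of the series, chosen by extraction method, which the labels state by position in the sample list and not mouse by mouse, with 7 handled mice (H108, H109, H110, H116, H117, H118 and H123) and 10 non-handled mice (NH142, NH155, NH156, NH157, NH162, NH163, NH165, NH166, NH167 and NH170). The other 8 arrays, from 4 handled and 4 non-handled mice, carried RNA made with Trizol and were used only for values side by side. All mice were Balb c/J females. Handled pups spent 15 minutes each morning apart from the mother on postnatal days 1 to 14, in a clean cage, and the non-handled pups stayed with theirs. Both groups went through behavioral tests at 8 weeks of age, and CA1 was dissected 2 weeks later, so there was no untested group. The authors left some mice of each group out of their open-field analysis because equipment failed during testing. Handling was given to whole litters and the labels name no litter, so an effect of handling and an effect of litter cannot be told apart, and p-values measure the spread between mice only.

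Brief handling is a classical early-life manipulation of rodents, known for lasting effects on fearful behavior and on the hormonal response to stress. The pyramidal neurons of CA1 form the main output of the hippocampus, and the field also holds interneurons, astrocytes, oligodendrocytes, microglia and vessels. In bulk tissue such as this, fewer cells of a type and less RNA per cell cannot be told apart. The arrays report a signal for each probe set, a group of short probes directed at one transcript, and many genes have several. Values below are log2 signals, and a difference is the handled mean minus the non-handled mean on that scale.

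The arrays of handled mice held more dim probe sets. Between 25.7% and 28.9% of probe sets had a signal under 32 in the 7 handled mice, with a mean of 27.1% ± 1.14 (SD, n = 7). In the 10 non-handled mice the share lay between 18.8% and 25.1%, with a mean of 22.9% ± 2.18 (SD, n = 10). The groups did not overlap, and the difference of 4.23 percentage points had an adjusted p of 0.0018 in an exact two-sided permutation test over all reassignments of the mice, corrected over 5 array measures. Handled mice had a median log2 signal of 6.46 ± 0.09 (SD, n = 7), against 6.79 ± 0.19 (SD, n = 10) without handling, with an adjusted p of 0.00231 in the same exact test. At the bright end, a signal of 1000 was exceeded by 14.9% ± 0.135 (SD, n = 7) of probe sets after handling and by 14.7% ± 0.248 (SD, n = 10) without it, which did not pass (adjusted p = 0.0529, exact permutation test). The ratio of the 3′ to the 5′ control probe sets, a measure of RNA integrity and of amplification, overlapped between the groups for both Gapdh (adjusted p = 0.535, exact permutation test) and Actb (adjusted p = 0.469, exact permutation test). NH162 stood apart, with an Actb ratio of 3.24 on the log2 scale where the other column arrays lay between 1.54 and 2.01, and with a mean correlation of 0.877 with the other column arrays, below all the rest.

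The differences of single probe sets followed brightness and ran from clearly negative to slightly positive. When the 45037 probe sets were cut into 10 groups by mean signal, the dimmest group, with a median signal of 10.3, had a median difference of -0.64. It was -0.33 in group 5, -0.07 in group 7 and 0.06 in the brightest, where the median signal was 3421. These medians do not describe every probe set: in the dimmest group, of 4504 probe sets, 4 were called higher and 204 lower. Because the typical difference depended on signal level, the differences of gene groups below are also given relative to like brightness. This means after subtraction of the running median over the probe sets nearest in mean signal. Over all 18193 genes, each represented by its brightest probe set, the median difference was -0.13 and the median relative difference was -0.04, with 45.9% of genes above the reference.

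**Figure D1:**
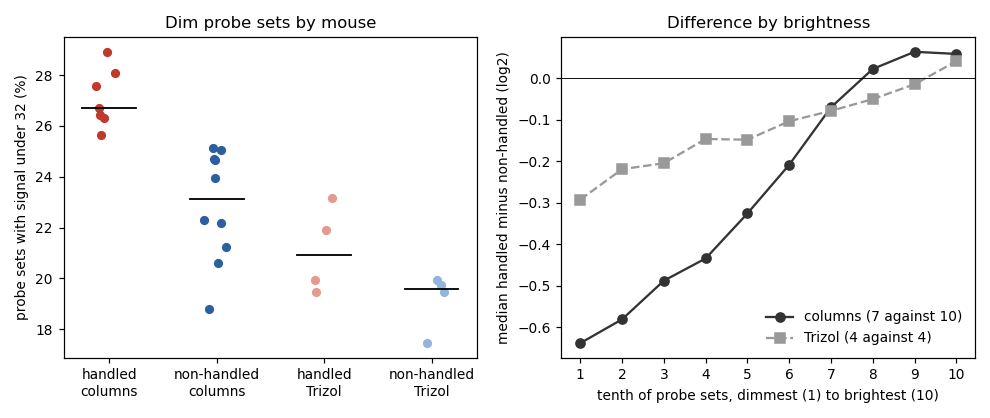
Left, the percentage of probe sets with a signal under 32 in each of the 25 mice (points) with the group median (line). Right, the median difference of handled minus non-handled mice on the log2 scale (y axis) in 10 groups of probe sets ordered by mean signal (x axis), for columns and for Trizol. With columns every handled mouse lies above every non-handled mouse, and the difference runs from -0.64 in the dimmest group to 0.06 in the brightest, and from -0.29 to 0.04 with Trizol.

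Single probe sets were tested with limma and Benjamini-Hochberg adjustment over all 45037. At an adjusted p under 0.05, 1964 were higher in handled mice (4.36% of those tested) and 3444 were lower (7.65%). Scaling decided the balance of directions. The share of calls that were higher was 36.3% on the deposited scale, 49.4% after quantile normalization, 44.7% after fast cyclic loess and 84.0% when every array was set to the same median. That last scaling adds a constant to every difference, so that the median over all probe sets went from -0.17 to 0.16, and it leaves the relative differences as they are. Under the deposited scale, quantile normalization and fast cyclic loess alike, 1414 probe sets were called higher and 1767 lower, or 681 and 986 genes by their brightest probe set. Brightness also separated the directions of calls. In the upper 50% of probe sets by mean signal 1907 rose and 2114 fell, whereas in the lower 50% 57 rose and 1330 fell.

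The falls reached further than the rises. Among probe sets in the upper 50%, 639 falls and 45 rises exceeded a log2 difference of 1, 100 falls and 2 rises exceeded 2, and 26 falls and no rise exceeded 3. The largest fall, -6.72, was at 1434110_x_at, which has no gene name here, with 6.56 to 8.35 in handled and 13.57 to 14.93 in non-handled mice. The largest fall at a probe set with a gene belonged to Pik3cd, which encodes the delta catalytic subunit of PI3 kinase, at probe set 1443798_at. Its lowest, median and highest log2 signals were 9.86, 10.50 and 10.73 in handled mice and 15.19, 15.75 and the ceiling of the scale in non-handled mice. The groups lay far apart, with 4 non-handled values at that ceiling, which makes the difference a lower limit, and the difference was -5.35 (SE 0.14, limma adjusted p = 4.96e-19). Fen1, a flap endonuclease of DNA replication and repair, followed at 1436454_x_at with 9.87, 10.60 and 10.74 against 14.22, 15.95 and the ceiling. Its groups did not meet either, again with 4 non-handled values at the ceiling (difference -5.18, SE 0.19, limma adjusted p = 8e-16).

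The same separation held for all 12 genes with the largest falls. Cryl1, the lambda crystallin gene, ranged from 4.44 to 8.29 in handled and from 10.69 to 12.62 in non-handled mice (difference -4.97). E2f5, a repressive transcription factor of the cell cycle, lay between 7.01 and 10.33 against 12.03 and 15.25 (difference -4.37). Commd5 had 8.11, 8.75 and 8.98 as its lowest, median and highest handled values and 11.32, 12.85 and 14.68 as the non-handled ones. It fell by 4.10 on the log2 scale. Ppp1r13l, an inhibitor of p53, differed by -4.08, Supt20, a part of the SAGA coactivator complex, by -4.03, and Ss18l1, a calcium-responsive coactivator, by -3.91. Samhd1, a phosphohydrolase that degrades deoxynucleotides, differed by -3.88, Boll, a germline RNA-binding protein, by -3.77, the semaphorin Sema6c by -3.71 and 1700003E16Rik by -3.67. The lowest single non-handled value among the 12 was 6.63, in Supt20.

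Few other probe sets of the same genes moved with these falls. Another probe set in the upper 50% was present for 10 of the 12 genes, and another was called for 2 of them, Samhd1 and Sema6c. For Pik3cd the other probe set differed by 0.20 and for Fen1 by 0.13, neither called, and the pair of others for Cryl1 differed by 0.15 and 0.19. The second Sema6c probe set fell by 2.20, and a second one of Samhd1 fell by 3.19. Probe sets whose names end in _x_at, which share probes with other sequences, made up 1532 of the upper 50%. Of them 17.3% fell, against 8.89% of the 16453 plain _at probe sets, and 26 of the 100 falls beyond 2 were of this kind.

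**Figure D2:**
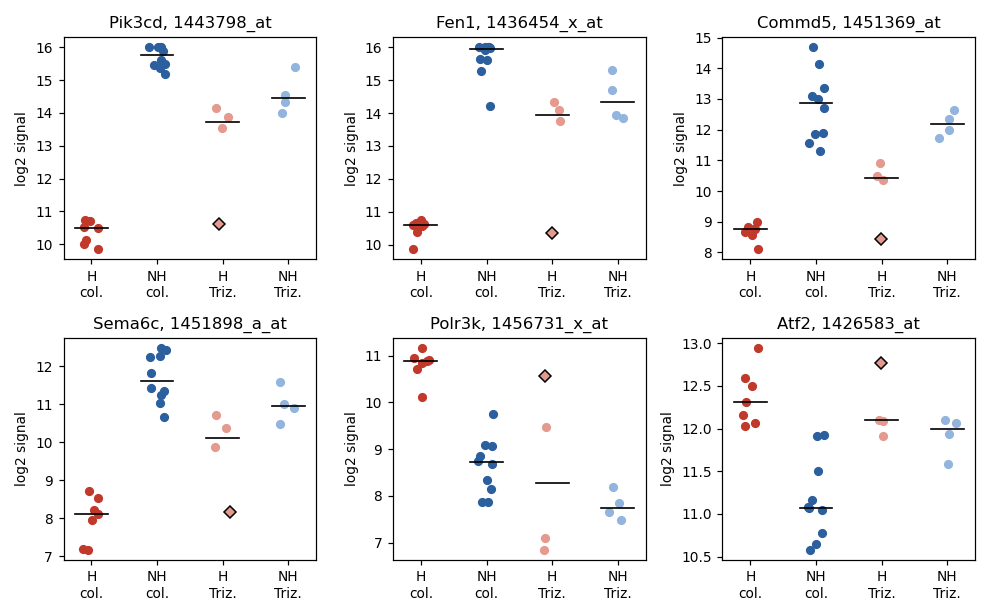
The log2 signal (y axis) of each mouse for the probe sets of Pik3cd, Fen1, Commd5, Sema6c, Polr3k and Atf2, with handled (H) and non-handled (NH) mice of the column (col.) and Trizol (Triz.) arrays, group medians as lines and H113 as a diamond. In the column arrays the groups do not overlap for any of the 6, and H113 lies at 10.61 for Pik3cd, beside the column handled mice and away from the other Trizol handled mice, which lie between 13.55 and 14.14.

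The rises were smaller, and their groups mostly met. Ssx2ip, a centrosome and cell junction protein, had lowest, median and highest values of 7.62, 8.18 and 8.85 in handled and 4.46, 5.77 and 7.68 in non-handled mice, so that the ranges touched at one end (difference 2.28, SE 0.39, limma adjusted p = 0.000503). Polr3k, a subunit of RNA polymerase III, had 10.12, 10.89 and 11.17 against 7.86, 8.72 and 9.75 at 1456731_x_at, without overlap (difference 2.16, SE 0.21, limma adjusted p = 9.09e-08). The 3 other Polr3k probe sets in the upper 50% differed by -0.64 to 0.17, the brightest by 0.01, and none was called. Atf2, a member of the ATF and CREB family of transcription factors, had 12.03, 12.31 and 12.94 against 10.58, 11.07 and 11.93, also without overlap (difference 1.2, SE 0.17, limma adjusted p = 6.04e-05). These were the 2 of the 12 largest rises whose groups lay apart.

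The remaining rises were of mixed function. Cacng2, the auxiliary AMPA receptor subunit stargazin, rose by 1.63 at 1420596_at, and its brightest probe set differed by 0.19 without a call. Cpeb4, which regulates translation from the tails of messages, rose by 1.30 at 1420617_at and by 0.45 at its brightest probe set, a call lost under quantile normalization and loess. The RNA helicase Dhx9 rose by 1.22 and by 0.73 at its other probe set in the upper 50%. Stt3b, of the oligosaccharyltransferase, rose by 1.39, the transcription factor Ets2 by 1.35, the semaphorin Sema6b by 1.28, the metalloproteinase inhibitor Timp3 by 1.27, the nuclear scaffold protein Safb2 by 1.22 and the imprinted zinc-finger gene Peg3 by 1.22. Another probe set in the upper 50% was present for 11 of the 12 genes and was called for 7 of them.

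Genes measured by several probe sets gave a second view. For 317 genes at least 2 probe sets of the upper 50% were called in the same direction and none in the other, and 225 of these genes rose and 92 fell. By the larger of their 2 smallest p-values, 11 of the first 12 fell. The potassium channel gene Kcnh3 fell by 2.59 at 1459107_at, where handled mice had 8.48, 9.20 and 9.33 and non-handled mice 10.52, 11.61 and 13.07, and by 1.69 at 1445805_x_at. The groups were apart at both. Sf3b4, of the spliceosome, fell by 2.50 and 1.15, and Phgdh, the first enzyme of serine synthesis, fell at 3 probe sets by 1.85, 1.56 and 0.85. Serf2 fell at all 5 of its probe sets, by 0.57 to 1.22. R3hdm4 fell by 2.58 and 1.99, the palmitoyltransferase gene Zdhhc14 by 2.63 and 1.27, the Arf GTPase activator Arfgap2 by 1.71 and 1.38, the thiopurine methyltransferase gene Tpmt by 1.38 and 1.25, the deadenylase subunit Cnot10 by 1.16 and 1.00, and the proteasome subunit Psmd11 by 1.00 and 0.85. Of the large falls given below, those of Mrpl28, Ndufv2, Cacng7, Hdac11 and Ptbp1 were not among these 317 genes.

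Among gene groups, the machinery of ribosomes and respiration lay low in handled mice. Shares of called members are read here against 5.55% of all genes called higher and 9.26% called lower. Most of the lists hold mainly bright genes, and in the upper 50% of probe sets the shares were 8.47% higher and 9.39% lower. Of 76 mitochondrial ribosomal protein genes, 17 fell and 3 rose, and 66 lay at or below the like-bright reference (median relative difference -0.22). Of 43 cytosolic ribosomal protein genes, 7 fell, 1 rose and 37 lay at or below the reference (median -0.20), and of 83 respiratory chain subunits 7 fell, none rose and 69 lay at or below it (median -0.20). By calls alone, the respiratory genes lay near the background share of falls, and both ribosomal lists above it. Averaged over the list in each mouse, the mitochondrial ribosomal genes deviated from like-bright probe sets by -0.28 to 0.03 in handled mice and by -0.20 to 0.48 in non-handled mice. The ranges overlapped, as they did for the cytosolic ribosomal genes, with -0.34 to -0.02 against -0.36 to 0.69.

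Mrpl28, of the large mitochondrial subunit, had 9.32, 9.72 and 9.96 in handled and 10.07, 11.03 and 11.55 in non-handled mice, without overlap (difference -1.25, SE 0.16, limma adjusted p = 1.24e-05). Mrpl21 differed by -0.66, Mrps17 of the small subunit by -0.62 and Mrpl14 by -0.77, and the 3 members that rose were Mrps5, Mrpl50 and Mrps33, by 0.63, 0.55 and 0.33. In the respiratory chain Ndufv2, a subunit of complex I, had 12.10, 12.52 and 12.69 against 13.46, 13.87 and 14.14, again apart (difference -1.36, SE 0.11, limma adjusted p = 4.64e-09). This was at 1438159_x_at, of the kind that shares probes with other sequences. Cox6c, Atp5g2 and Uqcrq, of cytochrome oxidase, ATP synthase and the cytochrome bc complex, differed by -0.53, -0.47 and -0.36. Among cytosolic ribosomal genes Rpl27 fell by 0.88, Fau by 0.61 and Rpl39 by 0.55, and Rps6 rose by 0.42. These genes have many near-identical processed copies, so their probe sets can share signal with them.

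The promoters of 2 of the mitochondrial ribosomal genes that fell are shown because they hold the letters CCGGAAG, the core bound by factors of the ETS family, on one strand or the other (CTTCCGG, in capitals). The sequences are RefSeq's, of build GRCm38.p6, on the strand of the gene and 300 bases long. Mrpl21 lies at chr19:3282792-3283091 on the plus strand, and Mrps23, which fell by 0.52, at chr11:88204138-88204437 on the plus strand.
Mrpl21: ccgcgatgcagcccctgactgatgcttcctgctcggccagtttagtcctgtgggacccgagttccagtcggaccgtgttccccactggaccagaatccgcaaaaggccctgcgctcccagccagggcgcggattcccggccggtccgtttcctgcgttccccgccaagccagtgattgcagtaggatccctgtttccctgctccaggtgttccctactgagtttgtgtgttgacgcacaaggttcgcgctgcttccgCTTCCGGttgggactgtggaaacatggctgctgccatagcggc
Mrps23: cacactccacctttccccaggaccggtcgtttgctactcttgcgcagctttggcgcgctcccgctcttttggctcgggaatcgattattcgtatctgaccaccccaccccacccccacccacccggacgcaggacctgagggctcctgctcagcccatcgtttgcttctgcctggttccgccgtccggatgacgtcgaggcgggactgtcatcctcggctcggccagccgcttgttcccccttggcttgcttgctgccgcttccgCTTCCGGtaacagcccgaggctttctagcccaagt
On either strand these letters were present in 34.2% of 73 promoters of mitochondrial ribosomal genes, 40.9% of 44 promoters of cytosolic ribosomal genes and 23.6% of 72 promoters of respiratory chain genes. They were in 8.86% of all 32851 promoters, in 1985 of 12398 promoters of genes in the upper 50% by signal, in 19.9% of 2177 promoters of the shortest of 5 groups of genes by span and in 8.25% of 2825 of the longest. Among other lists they were in 16.1% of 56 promoters of histone methylation enzymes and in 3.45% of 29 promoters of postsynaptic scaffold genes. A match describes the sequence and not a bound site.

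**Figure D3:**
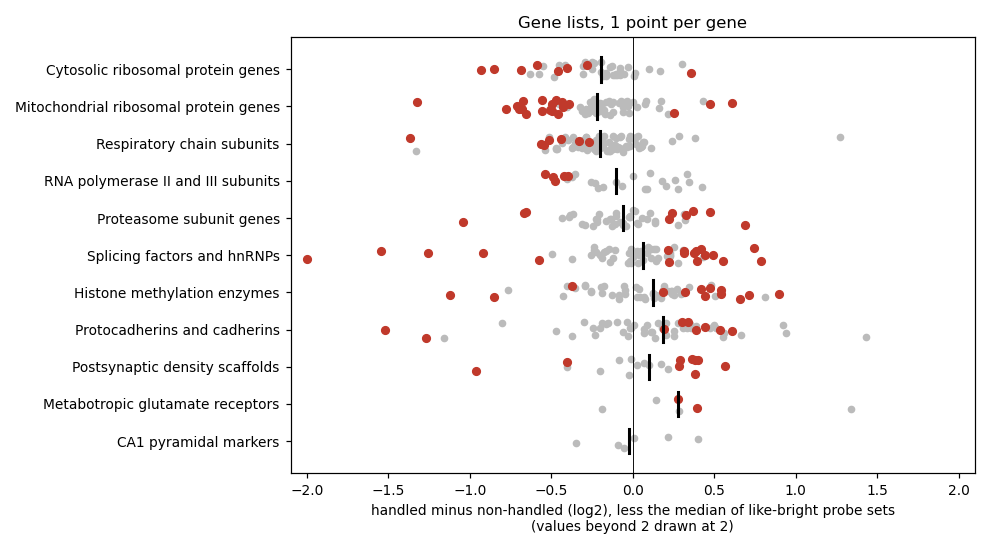
The difference of handled minus non-handled mice on the log2 scale less the median of like-bright probe sets (x axis) for each gene of 11 lists (y axis), with genes called at an adjusted p under 0.05 in red, others in grey and the list median as a black bar. The 3 lists of ribosomal and respiratory genes lie mostly below 0, with medians of -0.20, -0.22 and -0.20, and the cadherin list mostly above it, with a median of 0.18.

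In the column arrays the span of a gene on its chromosome went with its direction. Of the genes in the upper 50% by signal, 11784 had a span in RefSeq and were cut into 5 groups of like size. In the shortest group, with a median span of 4.48 kb, 3.56% of genes rose and 18.0% fell. Both shares shifted at every step, to 5.94% and 11.9%, 7.72% and 9.59%, 11.3% and 6.53%, and finally 13.6% and 5.43% in the longest group, where the median span was 139 kb. The median relative difference climbed from -0.17 over -0.08, -0.02 and 0.04 to 0.07. The median signals of the groups ran from 516 to 702. Across genes, which are not independent replicates, the rank correlation of span with relative difference was 0.26. The Trizol arrays gave 0.10. The 225 genes that rose at several probe sets had a median span of 49.1 kb and the 92 that fell had 12.5 kb.

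The trend was also examined mouse by mouse. In each mouse the median deviation of the longest group of genes was set against that of the shortest. It was 0.02, 0.12 and 0.30 (lowest, median and highest) in handled mice, all above 0, whereas 8 of the 10 non-handled mice lay below 0, the lowest being NH162 at -0.30 and the highest NH142 at 0.16. Without NH162 the difference between the longest and shortest groups was 0.21, against 0.24 with all mice. At its extremes the log2 3′/5′ ratio of Actb also went with the contrast within the groups, loosely and without a test. Among non-handled mice that ratio was lowest in NH142, at 1.57, and highest in NH165, NH166 and NH162, at 1.97, 2.01 and 3.24, where the contrasts were -0.25, -0.25 and -0.30. In between, NH170 had a ratio of 1.94 with a contrast of -0.03, and NH156 had 1.69 with -0.15. Among handled mice H109 had the lowest ratio, 1.54, with a contrast of 0.30, and H123 the highest, 1.91, with 0.02, while H108 had 1.60 with 0.03. In a fit with the Gapdh and Actb ratios as covariates, added after seeing the data, the difference between the longest and shortest groups was 0.197. The ribosomal and respiratory lists above belong to the short end, with median spans of 3.27 kb, 7.69 kb and 7.13 kb. With Trizol the contrast did not separate the groups. It was 0.04, -0.06, 0.03 and 0.05 in H113, H126, H130 and H131, within the -0.13 to 0.08 of the non-handled mice.

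**Figure D4:**
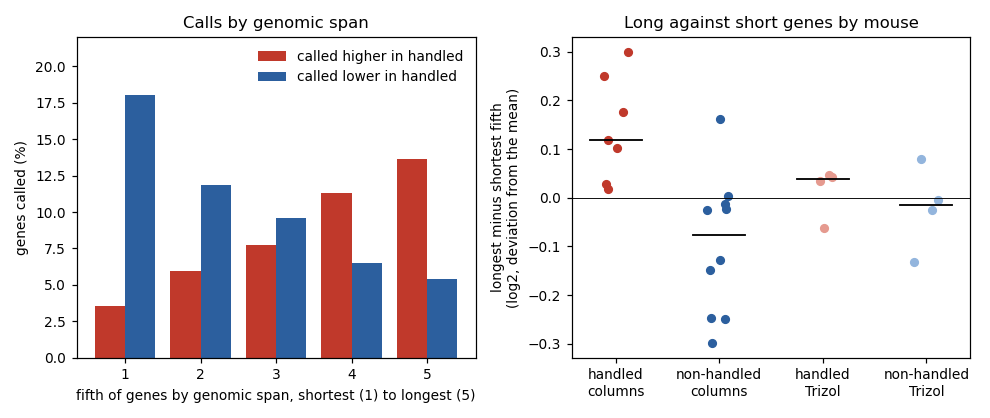
Left, the percentage of genes (y axis) called higher or lower in handled mice in 5 groups by genomic span (x axis). Right, for each of the 25 mice, the median log2 deviation of the longest group minus that of the shortest (y axis), with group medians as lines. The share called lower falls from 18.0% to 5.43% with span while the share called higher climbs from 3.56% to 13.6%, and all 7 column handled mice lie above 0. The handled and non-handled Trizol mice overlap.

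Synaptic genes, many of them long, were mixed. In most of the lists more rose than fell, but several held few called genes. The shares in the upper 50% of probe sets were 8.47% higher and 9.39% lower. Of 19 genes of postsynaptic scaffolds and their adhesion partners, 7 rose and 2 fell. Dlgap1, which links scaffolds of the postsynaptic density, had 12.71, 12.87 and 13.18 in handled and 12.28, 12.50 and 12.63 in non-handled mice, without overlap (difference 0.44, SE 0.08, limma adjusted p = 0.00129). Nlgn1, a neuroligin, rose by 0.44 and Dlg2, of the PSD scaffold family, by 0.36. Dlg4, which encodes the scaffold PSD-95, went the other way with 8.80, 9.27 and 9.63 against 9.60, 10.24 and 10.67, and the ranges met only at their edges (difference -0.89, SE 0.14, limma adjusted p = 0.000123). Of 6 metabotropic glutamate receptors 2 rose and none fell, Grm5 by 0.48 and Grm7 by 0.38. Of 16 ionotropic glutamate receptor subunits 3 rose and 2 fell. Grin2b and Gria2, of the NMDA and AMPA receptors, rose by 0.86 and 0.38, while the kainate receptor subunit Grik5 and the NMDA receptor subunit Grin2d differed by -0.50 and -0.66. Of 13 GABA receptor subunits, Gabra3 and Gabrb2 rose, by 0.56 and 0.38, and none fell.

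On the presynaptic side 3 of 29 vesicle and SNARE genes rose, near the background share of 8.47%, and 1 fell. The vesicle protein gene Sv2a had 12.27, 12.37 and 12.73 in handled and 10.64, 11.63 and 12.26 in non-handled mice, groups that lay side by side (difference 0.83, SE 0.15, limma adjusted p = 0.000999). Napb, of the SNARE recycling machinery, rose by 0.53 and Pclo, an active zone scaffold, by 0.33, and the complexin Cplx1 fell by 0.34, which quantile normalization did not keep. The 34 monoamine and acetylcholine receptors went the other way, with 1 rise and 5 falls (median relative difference -0.17). The serotonin receptor Htr1b rose by 0.66, and the muscarinic receptor Chrm1 had 9.93, 10.05 and 10.32 against 10.36, 10.58 and 10.85, without overlap (difference -0.48, SE 0.09, limma adjusted p = 0.000889).

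Ion channel genes moved in both directions. Of 80 potassium channel genes and their interacting proteins 6 rose and 8 fell, near the background shares of 5.55% and 9.26% over all genes. Beside Kcnh3 the called members included Kcnip2 at -0.66, Kcnip4 at 0.55 and Kcnj9 at 0.71. Of 37 sodium, calcium and HCN channel genes 5 rose and 2 fell. The neuronal sodium channel Scn2a had 12.92, 12.94 and 13.32 against 12.16, 12.53 and 12.69, without overlap (difference 0.50, SE 0.08, limma adjusted p = 0.000317), and the calcium channel Cacna1b rose by 0.51. Cacng7, an auxiliary subunit, ranged from 5.09 to 8.02 in handled and from 8.33 to 11.45 in non-handled mice (difference -3.17), and the pacemaker channel Hcn2 differed by -0.82. Of 16 genes of CaM kinases, calcineurin and neurogranin, Camk2d rose by 0.97, and neurogranin (Nrgn) and Camk2a fell by 0.55 and 0.29.

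Regulators of chromatin and RNA differed from list to list. Of 55 histone methylation enzymes 10 rose and 3 fell (median relative difference 0.13). Nsd3, a histone methyltransferase, had 10.93, 11.21 and 11.83 in handled and 9.81, 10.15 and 10.80 in non-handled mice, apart from one another (difference 0.97, SE 0.14, limma adjusted p = 3.81e-05). Its relative Nsd1 rose by 0.77 and the demethylase Kdm4a by 0.58, and Setdb2 fell by 0.87. Of 31 deacetylases and acetyltransferases 3 rose and 3 fell, with Crebbp, the CREB-binding protein, at 0.39 and Sirt1 at 0.42. These shares were near the 8.47% higher and 9.39% lower of the upper 50% of probe sets. In all, 20 of the 31 lay at or below the like-bright reference (median relative difference -0.09). Averaged over the list in each mouse, Hdac11 included, the deviation was -0.30 to -0.01 in handled and 0.01 to 0.12 in non-handled mice. At 1454803_a_at Hdac11 had 10.52, 10.95 and 11.53 against 13.52, 13.80 and 14.21, far apart (difference -2.78, SE 0.13, limma adjusted p = 9.3e-14). The DNA methyltransferase Dnmt3a rose by 0.44, as 1 of 2 rises among 14 genes of DNA methylation, of which none fell.

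Splicing factors and hnRNPs counted 13 rises and 5 falls among 61 genes, the rises small and the falls larger. Quantile normalization and loess kept 8 of the rises and 4 of the falls. Averaged over the list in each mouse, the deviation from like-bright probe sets overlapped, with -0.06 to 0.05 in handled and -0.10 to 0.13 in non-handled mice. Srsf2 rose by 0.89 and Hnrnpa2b1 by 0.42, while Ptbp1, a repressor of neuronal exons, had 8.92, 9.25 and 9.60 in handled and 11.14, 12.07 and 13.23 in non-handled mice (difference -2.80, SE 0.20, limma adjusted p = 8.59e-10). Its groups lay well apart. Of 25 subunits of RNA polymerases II and III none rose and 5 fell at the brightest probe set, among them Polr2h at -0.35, Polr1d at -0.39 and Polr2f at -0.43. The Polr3k rise described above was at a dimmer probe set and is not in this count. Of 46 proteasome genes 6 rose and 3 fell, with Psme4 at 0.69, Psmd1 at 0.45 and Psmd3 at -0.60. Of 58 protocadherins and cadherins 7 rose and 2 fell (median relative difference 0.18). Cdh2, the neuronal cadherin, had 11.25, 11.41 and 11.75 against 10.18, 10.88 and 11.17, without overlap (difference 0.64, SE 0.12, limma adjusted p = 0.000948). Pcdh7 and Pcdh17 rose by 0.68 and 0.47, and Pcdh1 fell by 1.73.

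Genes of the stress and activity responses changed little as groups. The glucocorticoid receptor gene Nr3c1 is measured by 6 probe sets and none was called. Its brightest, 1460303_at, had 11.10, 11.41 and 11.56 in handled and 10.82, 11.04 and 11.56 in non-handled mice, with overlapping ranges (difference 0.28, SE 0.10, limma adjusted p = 0.0546), and 1421867_at differed by -0.26 (SE 0.11, limma adjusted p = 0.109). Of 15 corticosteroid receptors and targets none was called in either direction. Of 21 immediate early genes 1 rose and 2 fell. Jund, an AP-1 subunit, had 10.60, 11.11 and 11.46 against 11.74, 11.96 and 12.79, without overlap (difference -1.0, SE 0.14, limma adjusted p = 3.97e-05), Egr4 fell by 1.39 and Egr3 rose by 0.34. Among 21 clock genes Nr1d2 rose by 0.35 and its relative Nr1d1 fell by 0.68. The calls of Egr3, Nr1d1 and Nr1d2 were lost under both quantile normalization and loess. The stress-response factor Atf4 fell by 0.55.

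Receptor and keratin genes with no known part in CA1 gave a view of dim probe sets. Of 75 odorant, vomeronasal and taste receptors none rose and 5 fell, and of 44 keratins none rose and 8 fell. In the lower 50% of probe sets, where most of these genes lay, 0.25% were called higher and 5.91% lower. The receptor falls were near that share and the keratin falls above it. Olfr64 had 4.34, 6.42 and 7.18 in handled and 7.85, 8.12 and 8.82 in non-handled mice (difference -1.98). Krt81 had 7.00, 7.84 and 8.11 against 8.15, 8.91 and 9.30 (difference -1.11). The medians of these lists, -0.76 and -0.62 before comparison at like brightness, were -0.28 and -0.19 after it, about as low as those of the ribosomal and respiratory genes. Of the 75 and 44 genes, 5 and 11 were in the upper 50% by signal, Olfr64 and Krt81 among them.

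Markers of cell types were checked against the labelled tissue. All 6 markers of CA1 pyramidal cells were in the upper 50% and none was called at its brightest probe set. Their summed signal lay between 41221 and 49499 in handled and between 30662 and 49018 in non-handled mice. Among these probe sets Spink8, the nearest to a call, differed by -0.31 (SE 0.12, limma adjusted p = 0.0781). A second Pou3f1 probe set in the upper 50% was called and differed by -0.41. None of 6 CA3 markers and none of 7 dentate granule cell markers was called, with summed signals of 1037 to 1880 against 1431 to 2010 and of 949 to 1252 against 1015 to 1555. Of 4 CA2 markers Rgs14 fell, by 0.38. Among 10 interneuron markers 2 rose, 1 fell and 6 lay at or below the like-bright reference (median relative difference -0.08). The rises were the genes of GABA synthesis. Gad2 had 11.49, 12.02 and 12.68 in handled and 10.36, 11.07 and 11.99 in non-handled mice, with some overlap (difference 1.04, SE 0.19, limma adjusted p = 0.000874), and Gad1 differed by 0.38, while Pvalb, parvalbumin, fell by 0.44. Sst, Reln, Npy, Vip and Calb2 differed by -0.14, -0.12, -0.05, -0.08 and -0.24, with no call, and Slc32a1 and Lhx6 by 0.32 and 0.24, also with no call. The summed signal of the list lay between 18072 and 22899 against 13806 and 19093.

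Other cell types showed single members moving in opposite directions. These counts take each gene at its brightest probe set. Of 9 astrocyte markers the water channel Aqp4 rose by 0.40 and Sox9 fell by 0.49. Away from the brightest probe set Gja1 rose at 3 others and Aldoc at 1, by 0.37, and Slc1a2 and Slc1a3 each had 1 other called. Of 9 microglia markers P2ry12 rose by 0.31 and C1qa fell by 0.48. None of 9 oligodendrocyte markers was called at its brightest probe set, but another probe set of Sox10 fell by 0.58 and 1 other of Mbp was called. Pdgfra, of oligodendrocyte precursors, rose by 0.42. Of 11 endothelial and mural markers Kcnj8 fell by 0.57, and of 5 choroid plexus and ependymal markers Folr1 fell by 0.92. The 2 blood markers summed to a signal of 29 to 198 against 75 to 209. Under quantile normalization or loess the calls of Gad1, Sox9, P2ry12, Kcnj8 and Folr1 were lost. Whether the cells sampled had a part in the differences of other genes was not tested.

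With Trizol the same comparison, of 4 handled and 4 non-handled mice, called no probe set in limma, while 2870 had an unadjusted p under 0.05. Of the 1907 rises of the column arrays in the upper 50%, 78.2% had the same direction with Trizol, and of the 2114 falls 85.5%, where 54.0% of all probe sets in the upper 50% were lower with Trizol. The median differences were smaller, at 0.14 against 0.48 for the rises and -0.28 against -0.72 for the falls. The ribosomal and respiratory lists had Trizol median differences of 0.03 for cytosolic ribosomal, -0.03 for mitochondrial ribosomal and 0.03 for respiratory genes. The Trizol median over all probe sets was -0.07, but it too followed brightness, and these lists are mostly bright. It was -0.03 in the upper 50% and -0.01 and 0.04 in brightness groups 9 and 10.

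One Trizol mouse, H113, resembled the column handled mice at the probe sets with extreme differences. For Pik3cd the log2 signals were 10.61 in H113, 13.87 in H126, 14.14 in H130 and 13.55 in H131, and 15.40, 14.33, 14.56 and 13.99 in NH138, NH144, NH146 and NH147. For Commd5 they were 8.45, 10.36, 10.93 and 10.50 in the handled and 12.65, 12.35, 11.71 and 11.99 in the non-handled mice, in the same order. H113 was thus lowest at both, and for Commd5 the other 3 handled mice also lay under all non-handled mice. It was the lowest of the 8 Trizol mice for 11 of the 12 largest falls, the exception being Boll, and the highest for 6 of the 12 largest rises. Over the 2114 falls it was lowest in 36.6% and over the 1907 rises highest in 43.4%, where over all 22518 probe sets in the upper 50% it was lowest in 2919 and highest in 12.5%. Among the 100 falls beyond 2 it was lowest in 76. By its number H113 falls in the run of the column handled mice, H108 to H123, and H126, H130 and H131 do not. The log2 3′/5′ ratio of Gapdh was 1.58 in H113, within the 1.49 to 1.95 of the other Trizol mice and above the 1.15 to 1.52 of the column handled mice. What H113 and the column mice share was not tested.

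**Figure D5:**
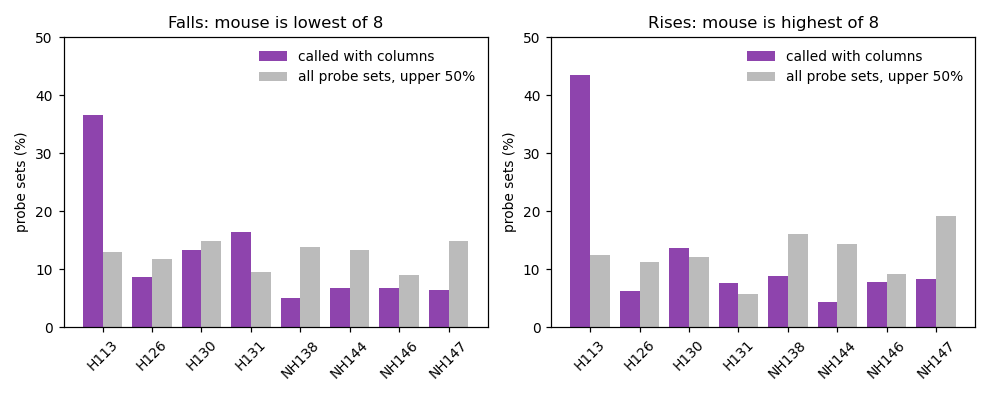
The percentage of probe sets (y axis) for which each of the 8 Trizol mice (x axis) has the lowest signal of the 8, among falls of the column arrays (left), or the highest, among rises (right), with all probe sets of the upper 50% in grey. H113 reaches 36.6% and 43.4%, and the next mouse 16.5% among falls and 13.6% among rises.

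The handling difference itself differed between columns and Trizol for 23 probe sets (0.0511% of those tested) in an interaction test with limma, 20 of them with a gene, and for 22 the difference was more negative with columns. They included Pik3cd, Fen1, Samhd1, Sema6c, Hdac11, Phgdh and Ndufv2. Fa2h, a fatty acid hydroxylase of myelin lipids named after its value was seen, was the exception. It lay between 10.66 and 10.92 in column handled and 9.43 and 10.06 in column non-handled mice, apart from one another, and at 9.75, 9.43, 9.53 and 9.46 in H113, H126, H130 and H131, within or near the 9.19 to 9.73 of the Trizol non-handled mice. Without H113 the count of such probe sets was 61, and without any one of the other 3 Trizol handled mice it was 7 to 9. Extraction method and the set of animals cannot be told apart in this comparison.

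Mice differed among themselves less in the handled group. The median SD of a probe set in the upper 50% was 0.24 over the 7 handled and 0.34 over the 10 non-handled mice, and 0.30 over the non-handled mice without NH162. The SD was smaller in handled mice for 74.8% of these probe sets, and for 67.8% without NH162. In the lower 50% the medians were 1.11 and 1.1.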

How the data were processed

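CA1 RNA from 25 Balb c/J females was amplified, labeled and hybridized to Affymetrix mouse arrays. The deposited values are linear intensity signals of the MAS algorithm that the authors made with Affymetrix Expression Console, scaled per array. Depth does not apply to arrays, and their number limits the precision. Groups came from sample titles. Extraction came from the protocol in the labels, which assigns columns to the first 17 samples and Trizol to the other 8, counted here in series order. The 64 control probe sets were left out and the remaining 45037 kept without filter. Of these, 34945 had 1 gene, 932 several and 9160 none, and no pair of arrays was identical.

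Log2 signals were fitted with limma 3.58.1 in R 4.3.3 (lmFit and eBayes with a trended prior) on the 17 column arrays with handling as the only term, with Benjamini-Hochberg adjustment over all probe sets. Interaction with extraction used all 25 arrays. Array measures were compared by exact permutation in Python 3.11.15. Named genes were Nr3c1, the 12 largest rises and the 12 largest falls of called probe sets within the upper 50% by signal, genes with several called probe sets, up to 4 called members of each list (1 where none was called) and list markers. Mrps5, Mrpl50, Mrps33, Mrps23 and Fa2h were added after their values were seen. Members and gene lists were chosen with earlier results of these data known. Alternatives changed the scaling (quantile, fast cyclic loess, same median), an offset, the signal filter, the prior, array weights, control ratios as covariates, the arrays fitted and each mouse left out. Genomic span and the promoter letters were examined after seeing the data. Spans, names and promoters came from RefSeq (GRCm38.p6). In simulated data with independent normal noise, changes were placed only in probe sets of the upper 50% by signal. Of these the test recovered 25% of changes of 0.5 and 74% of changes of 1 on the log2 scale. Over all probe sets 7 of 106 calls were false. Recovery among dimmer probe sets was not examined. One gene that the rule names is not reported here.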

Additional observations from a re-analysis of the deposited data

Results flagged for a closer look

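Among the groups examined for a single mouse far from the others, 10 had one, or 9.26% of them, and chance gives about 1 in 20. NH162 was high among non-handled mice in the log2 3′/5′ ratio of Gapdh (1.71) and of Actb (3.24). H109 was low among handled mice for 1700003E16Rik (5.16), Serf2 at 1433723_s_at (11.28) and Kcnh3 at 1459107_at (8.48). H108 was low for Fen1 (9.87), H118 low for Polr3k at 1456731_x_at (10.12) and H123 high for Tpmt at 1438087_at (8.12). Among non-handled mice NH163 was low for Fen1 (14.22) and NH155 high for Arfgap2 at 1447229_x_at (10.30).

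The handling difference with columns minus that with Trizol passed the interaction test in limma for 23 probe sets. It was -3.82 for Pik3cd, -3.87 for Fen1, -3.75 for Samhd1, -2.50 for Sema6c, -1.39 for Phgdh, -1.82 for Hdac11 and -1.05 for Ndufv2. It was -4.86 for Ccdc73, -3.38 for Cfap61, -2.70 for Ddx5, -2.50 for Srr, -2.42 for Armc8, -2.35 for Timm44, -2.20 for Ezr, -1.87 for Sptlc1, -1.76 for Hnrnpk, -1.51 for Prelid1, -1.25 for Ttc3 and -1.01 for Txn2. Fa2h had 1.02. The probe sets without a gene name had -5.31 (1434110_x_at), -1.83 (1457256_x_at) and -1.50 (1457612_at).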

How the results depend on the processing

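No paired analysis was possible because mouse numbers are never shared between the groups. The 5408 calls became 9265 with arrays set to the same median and 3312 with the control ratios as covariates, and 3515 (without H109) to 6479 (without NH142) with 1 mouse left out. The 1964 calls higher in handled mice became 7778 with the same median, 1026 without a trended prior, 1223 with the covariates, and 1118 (without H109) to 2423 with a mouse left out. The 3444 lower became 1844 after quantile normalization, 2151 after fast cyclic loess, 1487 with the same median and 2089 with the covariates, and 2397 to 4056 with a mouse left out. The 23 interactions became 3 without a trended prior, and 7 (without H130) to 61 (without H113) with a mouse left out, with 8 without H131, 9 without H126, 10 without NH144, 12 without NH147, 14 without H108, H110 or NH163 and 15 without H109 or NH165. The share over 1000 differed by 0.24 points, by -0.0785 at a threshold of 500 and by 0.232 at 2000, where it passed (adjusted p = 0.0133, exact permutation test), and by 0.184 to 0.277 with a mouse left out, where it passed without H123, NH142, NH167 or NH170.

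Of 135 named probe sets under 10 other settings, 1245 of 1350 values kept direction and call, 98 lost the call, 3 gained it and 4 reversed. With a mouse left out 2161 of 2295 did, 127 lost it, 6 gained it and 1 reversed. The reversals were Nr3c1 1421867_at at 0.0703, Spink8 1435999_at at 0.0228 and Camk2a 1457311_at at 0.0429 with the same median, and Nr3c1 1457635_s_at at -0.00365 with fast cyclic loess and -0.00969 (without H118) to 0.104 (without H123) with a mouse left out. Except for those the same median sets by construction, the cause was not tested.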
